A study of Mus musculus with 12 samples.

Results

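The response of Lcn2-/- mouse liver to chronic carbon tetrachloride (CCl4) was followed across all 15645 genes of a table. The table sets 3 libraries of Lcn2-/- livers given CCl4 against 3 libraries of Lcn2-/- livers given the oil vehicle. These are 6 of the 12 libraries of the series. All mice of both groups were female C57BL/6 mice that carry the Lcn2 deletion and were 8 weeks old at the first injection. The Lcn2-/- (CCl4) group received intraperitoneal CCl4 at 0.8 ml per kg body weight in mineral oil, 2 injections per week for 8 weeks, and the Lcn2-/- (Oil) group received the mineral oil alone. Livers were taken 48 hours after the last injection and the polyadenylated RNA was read from its 3′ ends. The remaining 6 libraries, wild type (CCl4) and wild type (Oil) with 3 libraries each, are used only to show where the Lcn2-/- response differs. The labels give neither the construct of the Lcn2 allele nor the animal behind each library, so a p-value here reflects how far libraries of a group varied, and part of that variation may be technical.

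CCl4 is a solvent that hepatocytes around the central vein turn into a free radical by means of the cytochrome P450 enzyme CYP2E1, and those hepatocytes die. Repeated dosing brings a cycle of death, macrophage clearance and hepatocyte division, while hepatic stellate cells turn into myofibroblasts that lay down fibrillar collagen. Lipocalin 2, encoded by Lcn2, is a secreted protein of neutrophils and injured hepatocytes that binds iron-carrying bacterial siderophores and belongs to the acute-phase proteins, which hepatocytes release during inflammation.

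Values are CPM as deposited, the reads of a gene scaled to a common total of reads in genes per library. The Lcn2-/- CCl4 libraries held 7582962 to 9933056 reads in genes and the Lcn2-/- oil libraries 8066536 to 13939671. A level of 3 reads was worth 0.302 to 0.396 CPM in Lcn2-/- CCl4 livers and 0.215 to 0.372 CPM in Lcn2-/- oil livers, and counting limits any value near that level. Lcn2 itself stood at 16.7, 14.6 and 4.63 CPM in Lcn2-/- CCl4 livers, against 7.74, 3.44 and 4.21 CPM in Lcn2-/- oil livers (log2 fold change 0.98, SE 0.39, adjusted p = 0.058). It passed without Lcn2-/- CCl4 library 3 (log2 fold change 1.503) or oil library 1 (1.27). The wild type libraries held 557, 424 and 405 CPM in wild type CCl4 livers, against 345, 739 and 1045 CPM in wild type oil livers, so all 6 Lcn2-/- libraries were far below all 6 wild type libraries and fitted their label. Whether the counted 3′ reads lie inside the deleted part of the gene is not given in the sources used here. The hepatocyte markers Alb, Apoa1, Ttr, Hnf4a and Serpina1a were all measured, as were the markers of stellate, Kupffer, sinusoidal and bile duct cells. Ly6g of neutrophils, the pancreas marker Prss2 and the kidney, heart and fat markers Umod, Myh6 and Adipoq were not in the table. Cela1, the other marker fixed for pancreas, was in the table. It stood at 17.3 to 17.9 CPM in Lcn2-/- CCl4 livers and 14.4 to 25.9 CPM in Lcn2-/- oil livers and did not pass. Whether its reads came from another tissue was not tested. Library 3 of the Lcn2-/- CCl4 group stood apart from the other 2 in several genes, and it also held more CPM in genes outside the table (2668, against 624 and 709 in the other 2). The part of these values in its lower matrix and monocyte genes, given below, was not tested.

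The scale of the values matters for every count that follows. The 100 most abundant genes took 41.5 to 42.5% of the reads in Lcn2-/- CCl4 livers and 48.4 to 49.0% in Lcn2-/- oil livers, and on the deposited CPM the median log2 fold change over all genes was 0.35. After rescaling with TMM (trimmed mean of M-values, a factor that centers the bulk of genes) that median was 0.03, a shift of 0.32. Counts are therefore given on the deposited CPM and with TMM scaling, and a gene that passed on only 1 of these scales is named as such. A gene was called higher or lower when its adjusted p (limma on log2(CPM + 1), Benjamini-Hochberg over the table) was at most 0.05 and its log2 fold change was beyond 0.56.

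CCl4 changed a large part of the transcriptome of Lcn2-/- livers. A total of 4631 genes (29.6% of those tested) rose and 705 (4.51%) fell, and with TMM scaling 1962 rose (12.5%) and 1672 fell (10.7%). All 1962 genes that rose with TMM scaling also rose on the deposited CPM, all 705 that fell on the deposited CPM also fell with TMM scaling, and no gene was called in opposite directions. Without library 3 of the Lcn2-/- CCl4 group 4584 rose and 689 fell on the deposited CPM. The values of the groups did not overlap for 8421 genes (53.8% of those tested). The distribution of the fold changes shows how the scale moves all genes together.

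**Figure D1:**
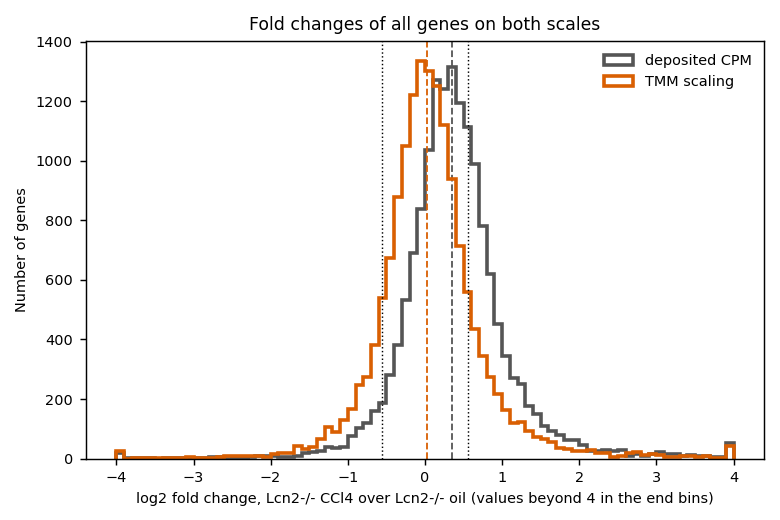
Number of genes (y axis) by log2 fold change of Lcn2-/- CCl4 over Lcn2-/- oil livers (x axis) for all 15645 genes, on the deposited CPM and with TMM scaling. The dashed lines mark the medians of 0.35 and 0.03, and the dotted lines mark the call thresholds of 0.56 in either direction.

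Among genes with a mean of at least 5 CPM, the 10 with the largest increase were Cdc20, Ly6d, Ube2c, Col1a1, Ccnb2, Cdca3, Ccnb1, Cdk1, Mmp12 and Gpnmb, all of which rose on both scales and without each library in turn. Of these, 6 belong to the machinery of mitosis. Ly6d, a small surface protein anchored to the membrane by a lipid, stood at 179, 280.1 and 190.0 CPM in Lcn2-/- CCl4 livers, against 2.18, 1.79 and 1.61 CPM in Lcn2-/- oil livers (log2 fold change 6.22, SE 0.17, adjusted p = 3.9e-10). The 10 with the largest decrease were Mup19, Gm13775, Mup7, Slc1a2, Sult3a1, Cyp2c38, Mup16, Cyp2c69, Mup17 and Mup18. These are products of hepatocytes, and the Mup and Cyp2c genes have near-identical copies between which the counting could split or move reads, so that the value of any single copy is uncertain. Slc1a2, the glutamate transporter of hepatocytes next to the central vein, stood at 1.85, 0 and 1.0001 CPM in Lcn2-/- CCl4 livers, against 130.1, 108 and 96.2 CPM in Lcn2-/- oil livers (log2 fold change -5.96, SE 0.30, adjusted p = 2.6e-08). The groups were far apart for this gene, and CCl4 library 2 held no read of it.

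The gene groups behind these changes were counted over 54 lists that cover the cell types and pathways of the liver. Mitosis, DNA replication, the cytoskeleton, monocytes, scar-associated macrophages and matrix lay at the upper end, and pericentral genes, cytochrome P450 enzymes, bile acid genes and the urea cycle lay at the lower end. A list's count is to be read against the shares of all genes, of which 29.6% rose and 4.51% fell on the deposited CPM and 12.5% rose and 10.7% fell with TMM scaling. In whole liver, a change in the number of cells of a type and a change in RNA per cell cannot be told apart, which holds for every list below.

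**Figure D2:**
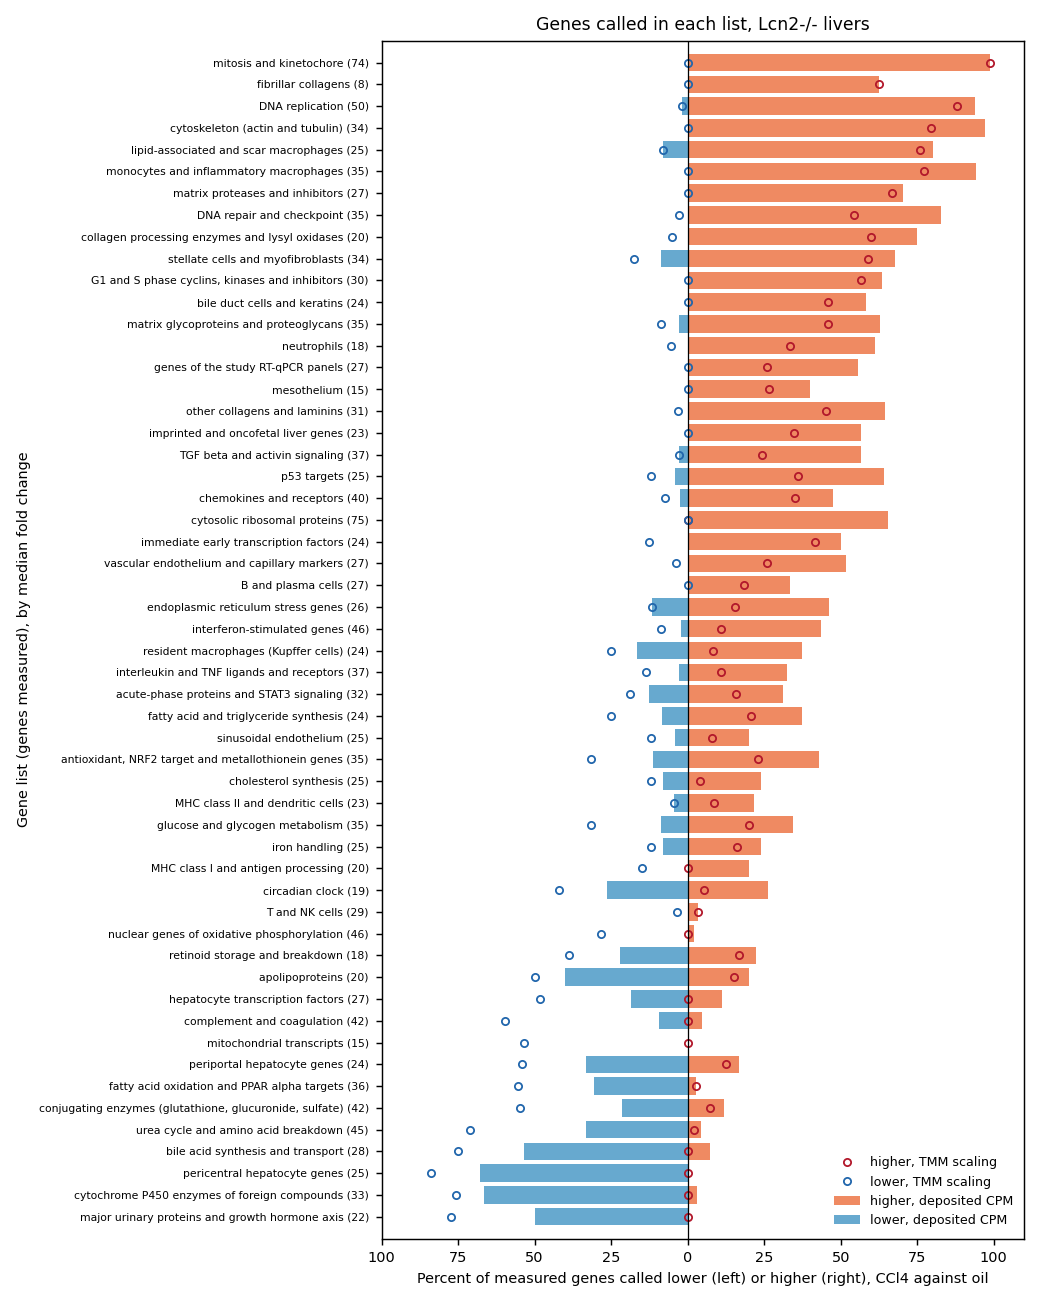
Share of the measured members of each gene list (y axis) that was called higher (right of 0) or lower (left of 0) in Lcn2-/- CCl4 than in Lcn2-/- oil livers, in percent (x axis). Bars give the deposited CPM and circles the TMM scaling. The bar of mitosis reaches 73 of 74 genes on both scales, whereas the bar of the ribosomal proteins (49 of 75) has its circle at 0.

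Genes of cell division rose, and mitosis had the highest median of the 54 lists. Of the mitosis and kinetochore list, 73 of the 74 genes measured rose and 0 fell (with TMM scaling, 73 and 0), with a median log2 fold change of 3.60 (3.38 with TMM scaling) against 0.35 (0.03) over all genes. Cdc20, which activates the anaphase-promoting ubiquitin ligase, stood at 171, 137 and 173 CPM in Lcn2-/- CCl4 livers, against 0.981, 0.359 and 1.36 CPM in Lcn2-/- oil livers (log2 fold change 6.44, SE 0.20, adjusted p = 9.7e-10). It lies at chr4:118432901-118437352 (GRCm38, minus strand), where it shares 53 bases with Elovl1 on the opposite strand. Ccnb2, a B-type cyclin that drives entry into mitosis, stood at 71.1, 62.8 and 79.0 CPM in Lcn2-/- CCl4 livers, against 0.981, 0 and 0.248 CPM in Lcn2-/- oil livers (log2 fold change 5.73, SE 0.25, adjusted p = 6.4e-09). Its partner kinase Cdk1 stood at 94.6, 85.4 and 81.1 CPM in Lcn2-/- CCl4 livers, against 1.85, 1.004 and 0.248 CPM in Lcn2-/- oil livers (log2 fold change 5.51, SE 0.25, adjusted p = 1.1e-08). All CCl4 libraries lay between 62.8 and 173 CPM for these 3 genes and no oil library exceeded 1.85 CPM, a level at which an oil value rests on few reads. Mki67, the source of the Ki67 proliferation antigen, averaged 90.5 ± 13.4 CPM in Lcn2-/- CCl4 livers and 1.35 ± 0.261 CPM in Lcn2-/- oil livers (SD, n = 3 each). Ube2c, the ubiquitin-conjugating enzyme that works with the same ligase, averaged 109 ± 6.44 CPM in Lcn2-/- CCl4 livers and 0.702 ± 0.466 CPM in Lcn2-/- oil livers (SD, n = 3 each). Pttg1, which encodes securin, was the 1 member that did not pass, at 42.5, 46.5 and 36.5 CPM in Lcn2-/- CCl4 livers, against 43.5, 31.5 and 31.7 CPM in Lcn2-/- oil livers.

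Promoters of the mitosis genes are shown because the letters that bind cell cycle regulators can be looked up in them. Of the 74 genes, 62 had an entry among the RefSeq promoters (GRCm38.p6, 250 bases before to 50 bases after each start), with 67 promoters in all. The cell cycle homology region (TTTGAA or TTCGAA, either strand), known as a site of the DREAM and MuvB complexes, occurred in 71.6% of these promoters and in 19.2% of all 32851 promoters, and CCAAT (either strand), the letters bound by NF-Y, occurred in 71.6% and 37.4%. For the 3 mitosis genes described above, capitals mark both motifs, which did not overlap each other. Only matches are described, and binding was not measured.
Ccnb2, chr9:70421505-70421804, minus strand: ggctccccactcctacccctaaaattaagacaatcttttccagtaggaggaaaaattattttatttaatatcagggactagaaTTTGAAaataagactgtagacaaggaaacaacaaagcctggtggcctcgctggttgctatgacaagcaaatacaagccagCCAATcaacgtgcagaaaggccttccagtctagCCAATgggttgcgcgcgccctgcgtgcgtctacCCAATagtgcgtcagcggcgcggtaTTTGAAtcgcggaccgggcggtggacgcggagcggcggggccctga
Cdc20, chr4:118437294-118437593, minus strand: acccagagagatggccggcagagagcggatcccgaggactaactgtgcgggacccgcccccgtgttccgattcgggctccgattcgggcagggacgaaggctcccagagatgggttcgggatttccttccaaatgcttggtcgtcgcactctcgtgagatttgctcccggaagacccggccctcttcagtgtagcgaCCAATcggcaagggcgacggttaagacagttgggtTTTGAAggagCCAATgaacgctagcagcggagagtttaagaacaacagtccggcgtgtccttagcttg
Cdk1, chr10:69352863-69353162, minus strand: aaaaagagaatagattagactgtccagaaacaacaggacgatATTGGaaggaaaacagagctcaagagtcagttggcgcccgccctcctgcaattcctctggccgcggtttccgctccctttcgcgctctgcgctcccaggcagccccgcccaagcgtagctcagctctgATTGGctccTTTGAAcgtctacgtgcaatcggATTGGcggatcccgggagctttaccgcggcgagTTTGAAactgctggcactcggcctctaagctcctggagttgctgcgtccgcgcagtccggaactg

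DNA synthesis genes rose nearly as widely. Of the DNA replication list, 47 of the 50 genes measured rose and 1 fell (with TMM scaling, 44 and 1), with a median log2 fold change of 1.86 (1.54 with TMM scaling). Rrm2, the regulated subunit of the reductase that makes deoxyribonucleotides, stood at 110.1, 95.04 and 111 CPM in Lcn2-/- CCl4 livers, against 2.40, 2.15 and 1.61 CPM in Lcn2-/- oil livers (log2 fold change 5.13, SE 0.16, adjusted p = 8.5e-10). Mcm5, a subunit of the replicative helicase, stood at 30.3, 39.9 and 42.8 CPM in Lcn2-/- CCl4 livers, against 2.07, 2.15 and 1.49 CPM in Lcn2-/- oil livers (log2 fold change 3.73, SE 0.20, adjusted p = 3.9e-08). Every CCl4 library was far above every oil library for both genes. Mcm10, which joins the helicase to the polymerase, was the 1 member that fell, at 10.2, 10.6 and 14.4 CPM in Lcn2-/- CCl4 livers, against 24.6, 24.4 and 24.7 CPM in Lcn2-/- oil livers (log2 fold change -1.02, SE 0.16, adjusted p = 2.8e-04). The E2F letters TTTNGCGC (either strand) occurred in 23.5% of the 51 promoters of 42 of the 50 replication genes and in 1.38% of all promoters, whereas the cell cycle homology region occurred in 15.7% of the replication promoters. Mcm6, another helicase subunit chosen after its value was seen because its promoter holds 3 of these matches, 2 of them overlapping on opposite strands, stood at 49.2, 61.7 and 67.4 CPM in Lcn2-/- CCl4 livers, against 3.71, 6.60 and 4.21 CPM in Lcn2-/- oil livers (log2 fold change 3.39, SE 0.20, adjusted p = 7.4e-08). Its promoter is shown with the E2F letters in capitals.
Mcm6, chr1:128359656-128359955, minus strand: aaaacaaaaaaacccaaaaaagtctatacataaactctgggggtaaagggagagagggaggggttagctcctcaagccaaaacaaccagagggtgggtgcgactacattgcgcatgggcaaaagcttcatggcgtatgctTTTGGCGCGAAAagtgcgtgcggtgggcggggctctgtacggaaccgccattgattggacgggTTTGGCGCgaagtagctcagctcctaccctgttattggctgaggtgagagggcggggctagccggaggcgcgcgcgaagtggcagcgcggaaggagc

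The G1 and S phase list had a smaller median log2 fold change (1.12, and 0.84 with TMM scaling) than the mitosis and replication lists. Of the G1 and S phase list, 19 of the 30 genes measured rose and 0 fell (with TMM scaling, 17 and 0). Ccnd1, the D-type cyclin that responds to growth signals, stood at 120.3, 173 and 114 CPM in Lcn2-/- CCl4 livers, against 26.4, 24.0 and 40.2 CPM in Lcn2-/- oil livers (log2 fold change 2.14, SE 0.19, adjusted p = 3.2e-06). The gene shares 1771 bases with LTO1 on the opposite strand, which also rose. Ccne1, the cyclin of S phase entry, stood at 10.7, 14.4 and 14.1 CPM in Lcn2-/- CCl4 livers, against 0.109, 0.287 and 0.248 CPM in Lcn2-/- oil livers (log2 fold change 3.53, SE 0.24, adjusted p = 3.3e-07). Cdkn1a, which encodes the kinase inhibitor p21 and is the best known p53 target, stood at 51.4, 46.2 and 48.6 CPM in Lcn2-/- CCl4 livers, against 3.49, 5.24 and 4.96 CPM in Lcn2-/- oil livers (log2 fold change 3.17, SE 0.17, adjusted p = 3.3e-08). Cyclins and an inhibitor of their kinases were both higher in these livers. Of the DNA repair and checkpoint list, 29 of the 35 genes measured rose and 0 fell (with TMM scaling, 19 and 1), among them H2ax, Neil3, Rad51ap1 and Clspn. Of the p53 target list, 16 of the 25 genes measured rose and 1 fell (with TMM scaling, 9 and 3), with Ckap2 (5.23) and Gtse1 (3.49) as the largest log2 fold changes beside Cdkn1a, and Ckap2 and Gtse1 are also genes of the mitotic spindle. Of the cytoskeleton list, 33 of the 34 genes measured rose and 0 fell (with TMM scaling, 27 and 0). Stmn1, which destabilizes microtubules, averaged 191 ± 29.9 CPM in Lcn2-/- CCl4 livers and 5.91 ± 1.51 CPM in Lcn2-/- oil livers (SD, n = 3 each). The tubulin Tuba1b averaged 559 ± 57.6 CPM in Lcn2-/- CCl4 livers and 68.5 ± 11.5 CPM in Lcn2-/- oil livers, and the tubulin Tubb6 averaged 112 ± 16.4 CPM in Lcn2-/- CCl4 livers and 4.28 ± 1.405 CPM in Lcn2-/- oil livers (SD, n = 3 each), so that all 3 genes were far higher with CCl4.

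**Figure D3:**
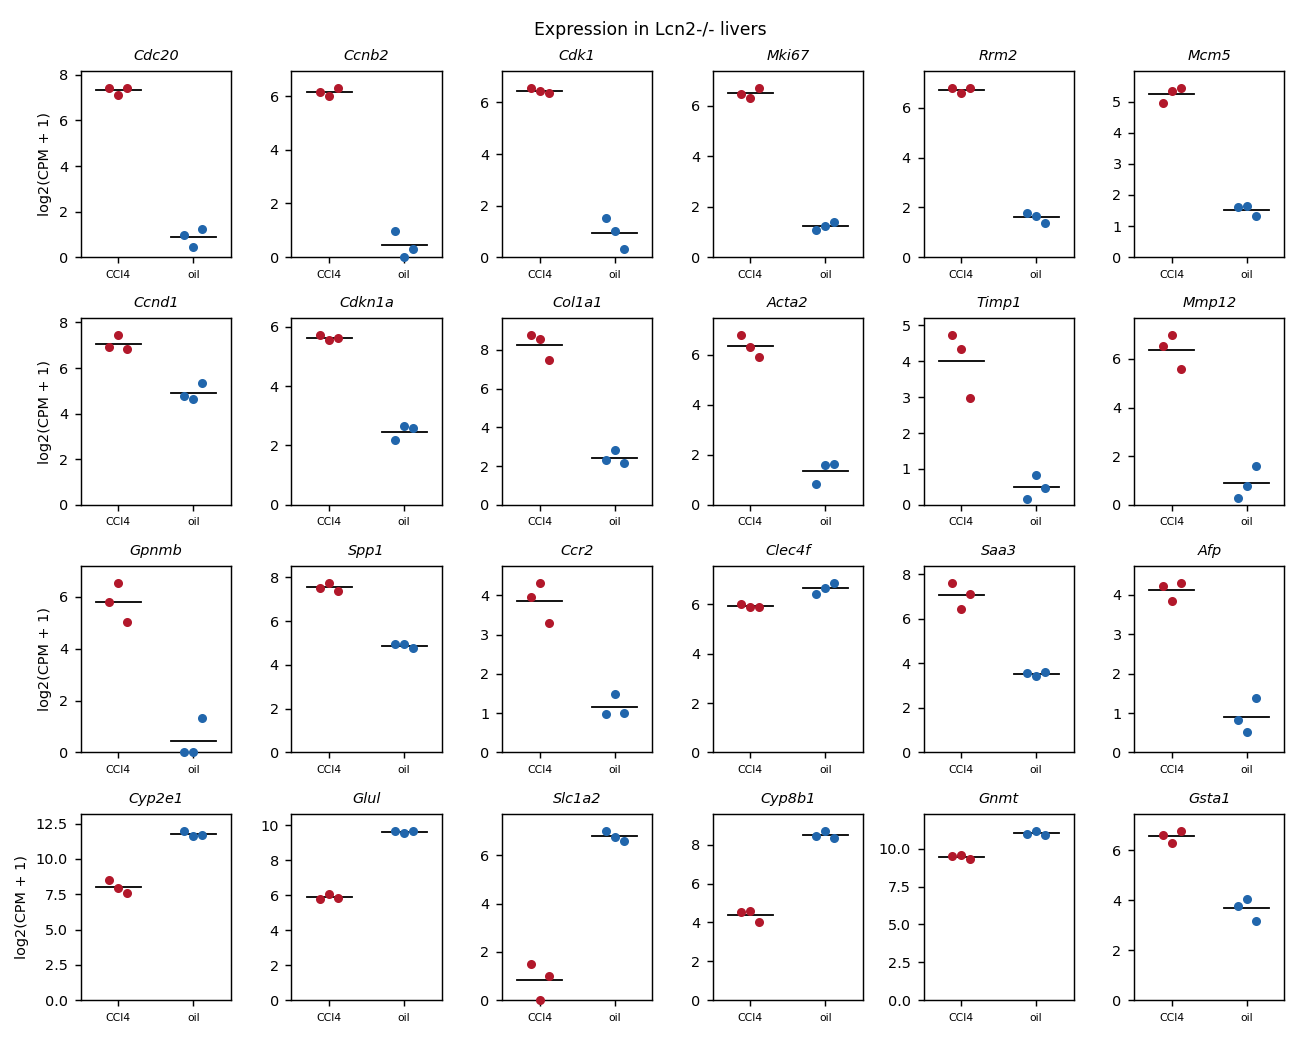
Expression of 24 genes named in the text as log2(CPM + 1) (y axis) in each library, Lcn2-/- CCl4 left of Lcn2-/- oil. Each point is a library and each horizontal line a group mean, n = 3 per group. The groups do not overlap for any of these genes, which also holds for 53.8% of all genes tested.

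Genes of the scar matrix rose. Of the fibrillar collagens, 5 of the 8 genes measured rose and 0 fell (with TMM scaling, 5 and 0), with a median log2 fold change of 2.77. Col1a1, the main chain of type I collagen, stood at 433, 380.1 and 179.5 CPM in Lcn2-/- CCl4 livers, against 3.92, 6.17 and 3.47 CPM in Lcn2-/- oil livers (log2 fold change 5.84, SE 0.27, adjusted p = 1.4e-08). Col1a2, its partner chain, stood at 297, 272 and 154 CPM in Lcn2-/- CCl4 livers, against 7.41, 6.96 and 8.80 CPM in Lcn2-/- oil livers (log2 fold change 4.74, SE 0.20, adjusted p = 6.4e-09). Col3a1, of type III collagen, stood at 252, 251 and 128 CPM in Lcn2-/- CCl4 livers, against 10.8, 14.3 and 9.17 CPM in Lcn2-/- oil livers (log2 fold change 4.04, SE 0.23, adjusted p = 7.1e-08). In each case library 3 was the lowest of the CCl4 group by a wide margin and still lay far above the oil group. The summed fibrillar collagens came to 1062, 973 and 514 CPM in Lcn2-/- CCl4 livers, against 38.0, 47.1 and 44.6 CPM in Lcn2-/- oil livers. Of the other collagens and laminins, 20 of the 31 genes measured rose and 0 fell (with TMM scaling, 14 and 1), with Nid1, Col4a1, Col4a2 and Col6a3 of basement membrane and microfibrils leading. Of the matrix glycoproteins and proteoglycans, 22 of the 35 genes measured rose and 1 fell (with TMM scaling, 16 and 3). Tnc, an embryonic matrix protein seen again in wounds, stood at 21.8, 13.7 and 11.6 CPM in Lcn2-/- CCl4 livers, against 0.218, 0.646 and 0.248 CPM in Lcn2-/- oil livers, with no overlap between the groups. Ecm1, a secreted matrix protein, was the 1 member that fell on the deposited CPM, at 53.1, 42.8 and 40.5 CPM in Lcn2-/- CCl4 livers, against 126, 94.8 and 105 CPM in Lcn2-/- oil livers (log2 fold change -1.23, SE 0.13, adjusted p = 1.5e-05).

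Enzymes that build and cut collagen moved with it. Of the processing enzymes and lysyl oxidases, 15 of the 20 genes measured rose and 0 fell (with TMM scaling, 12 and 1), with the crosslinkers Loxl2 (3.04), Lox (2.42) and Tgm2 (1.59) and the collagen chaperone Serpinh1 (2.69) leading on the log2 scale. Of the proteases and their inhibitors, 19 of the 27 genes measured rose and 0 fell (with TMM scaling, 18 and 0). Mmp12, the elastase of macrophages, stood at 92.4, 125 and 47.5 CPM in Lcn2-/- CCl4 livers, against 0.218, 0.717 and 1.98 CPM in Lcn2-/- oil livers (log2 fold change 5.49, SE 0.35, adjusted p = 2.1e-07). Timp1, the inhibitor of matrix metalloproteinases, stood at 25.5, 19.2 and 6.88 CPM in Lcn2-/- CCl4 livers, against 0.109, 0.789 and 0.372 CPM in Lcn2-/- oil livers (log2 fold change 3.53, SE 0.39, adjusted p = 2.0e-05). Library 3 was again the lowest of the CCl4 group for both genes, and the groups did not overlap. Of the stellate cell and myofibroblast list, 23 of the 34 genes measured rose and 3 fell (with TMM scaling, 20 and 6). Acta2, the smooth muscle actin of myofibroblasts, stood at 109, 78.9 and 59.6 CPM in Lcn2-/- CCl4 livers, against 0.763, 2.01 and 2.11 CPM in Lcn2-/- oil livers (log2 fold change 4.99, SE 0.25, adjusted p = 2.7e-08). Tagln, another protein of their contractile fibers, stood at 124, 94.3 and 78.3 CPM in Lcn2-/- CCl4 livers, against 6.98, 6.03 and 8.93 CPM in Lcn2-/- oil livers (log2 fold change 3.58, SE 0.18, adjusted p = 2.3e-08). The markers fixed for stellate cells did not move together on the deposited CPM. Des (log2 fold change 1.32) and Pdgfrb (1.52) rose, whereas Reln and Lrat did not pass. Reln stood at 42.7, 35.0 and 34.3 CPM in Lcn2-/- CCl4 livers, against 41.2, 24.6 and 28.5 CPM in Lcn2-/- oil livers, with overlapping groups. Lrat, the enzyme that stores retinol, stood at 19.4, 15.6 and 13.3 CPM in Lcn2-/- CCl4 livers, against 26.3, 15.6 and 17.5 CPM in Lcn2-/- oil livers. It did not pass on the deposited CPM and fell with TMM scaling (log2 fold change -0.67). Of the TGF beta and activin list, 21 of the 37 genes measured rose and 1 fell (with TMM scaling, 9 and 1). Id1, a target of the related BMP receptors, stood at 63.8, 65.1 and 56.3 CPM in Lcn2-/- CCl4 livers, against 7.85, 7.46 and 5.21 CPM in Lcn2-/- oil livers (log2 fold change 3.02, SE 0.16, adjusted p = 3.8e-08). Thbs1, which activates latent TGF beta, rose by 2.96 on the log2 scale.

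Genes of the epithelial and endothelial lists rose as well, and few of the sinusoidal list did. Of the bile duct and keratin list, 14 of the 24 genes measured rose and 0 fell (with TMM scaling, 11 and 0), and its summed level was 1501, 1666 and 1509 CPM in Lcn2-/- CCl4 livers, against 529, 614 and 632 CPM in Lcn2-/- oil livers. Krt8 and Krt18 form the keratin pair that hepatocytes also carry. Krt8 averaged 500.0 ± 39.9 CPM in Lcn2-/- CCl4 livers and 167 ± 16.0 CPM in Lcn2-/- oil livers, and Krt18 averaged 461 ± 14.1 CPM in Lcn2-/- CCl4 livers and 196 ± 29.9 CPM in Lcn2-/- oil livers (SD, n = 3 each). Prom1, a surface protein of ductular cells, stood at 40.5, 68.8 and 60.8 CPM in Lcn2-/- CCl4 livers, against 2.72, 6.46 and 6.20 CPM in Lcn2-/- oil livers (log2 fold change 3.27, SE 0.26, adjusted p = 1.5e-06). Of the 3 markers fixed for bile duct cells, Krt19 rose, at 6.59, 4.53 and 3.0001 CPM in Lcn2-/- CCl4 livers, against 1.20, 1.08 and 1.49 CPM in Lcn2-/- oil livers (log2 fold change 1.30, SE 0.28, adjusted p = 0.0025), and Epcam and Krt7 did not pass. Krt7 stood at 3.43, 2.42 and 0.375 CPM in Lcn2-/- CCl4 livers, against 0.545, 0.430 and 0.372 CPM in Lcn2-/- oil livers and passed without CCl4 library 3 (log2 fold change 1.43). Epcam stood at 1.85, 1.81 and 1.38 CPM in Lcn2-/- CCl4 livers, against 1.31, 0.287 and 0.744 CPM in Lcn2-/- oil livers (adjusted p = 0.075) and passed without oil library 1 (log2 fold change 0.83). Of the mesothelium list, 6 of the 15 genes measured rose and 0 fell (with TMM scaling, 4 and 0), and its summed level was 159, 72.4 and 66.6 CPM in Lcn2-/- CCl4 livers, against 32.5, 31.4 and 32.7 CPM in Lcn2-/- oil livers. Library 1 held more of the mesothelial signal than the other 2 CCl4 libraries together, while the defining marker Msln did not pass, at 5.67, 3.72 and 2.75 CPM in Lcn2-/- CCl4 livers, against 3.38, 1.58 and 1.86 CPM in Lcn2-/- oil livers. Of the sinusoidal endothelium list, 5 of the 25 genes measured rose and 1 fell (with TMM scaling, 2 and 3). Stab2, a scavenger receptor of those cells, stood at 31.3, 36.8 and 30.6 CPM in Lcn2-/- CCl4 livers, against 26.8, 24.6 and 28.8 CPM in Lcn2-/- oil livers and did not pass. Lyve1, a hyaluronan receptor, rose and stood at 13.5, 13.7 and 11.5 CPM in Lcn2-/- CCl4 livers, against 3.92, 1.87 and 4.46 CPM in Lcn2-/- oil livers (log2 fold change 1.70, SE 0.26, adjusted p = 2.2e-04). Of the vascular endothelium and capillary list, 14 of the 27 genes measured rose and 0 fell (with TMM scaling, 7 and 1), led by Vcam1, Cd34 and Ednrb.

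Among the leukocyte lists, that of monocytes and inflammatory macrophages held the largest share of genes that rose. Of the monocyte and inflammatory macrophage list, 33 of the 35 genes measured rose and 0 fell (with TMM scaling, 27 and 0), and its summed level was 1287, 1443 and 750.3 CPM in Lcn2-/- CCl4 livers, against 346, 377 and 498 CPM in Lcn2-/- oil livers, with library 3 the lowest of the CCl4 group. Ccr2, the chemokine receptor that brings monocytes into tissue, stood at 14.6, 18.9 and 8.75 CPM in Lcn2-/- CCl4 livers, against 0.981, 1.79 and 0.992 CPM in Lcn2-/- oil livers (log2 fold change 2.70, SE 0.29, adjusted p = 1.5e-05). Clec7a, a receptor for fungal glucans on phagocytes, stood at 75.4, 68.1 and 38.4 CPM in Lcn2-/- CCl4 livers, against 6.54, 7.53 and 10.4 CPM in Lcn2-/- oil livers (log2 fold change 2.71, SE 0.23, adjusted p = 2.5e-06). The lysosomal protein Cd68 stood at 48.1, 70.9 and 32.5 CPM in Lcn2-/- CCl4 livers, against 8.28, 11.5 and 11.8 CPM in Lcn2-/- oil livers (log2 fold change 2.10, SE 0.23, adjusted p = 2.2e-05). Every CCl4 library was above every oil library for these 3 genes. Of the list of lipid-associated and scar macrophages, 20 of the 25 genes measured rose and 2 fell (with TMM scaling, 19 and 2). Gpnmb, a glycoprotein of macrophages that have taken up lipid, stood at 55.7, 92.3 and 31.8 CPM in Lcn2-/- CCl4 livers, against 0, 0 and 1.49 CPM in Lcn2-/- oil livers (log2 fold change 5.36, SE 0.40, adjusted p = 7.3e-07). Spp1, which encodes osteopontin and is shared with bile duct cells, stood at 182, 215 and 167 CPM in Lcn2-/- CCl4 livers, against 30.0, 30.0 and 26.0 CPM in Lcn2-/- oil livers (log2 fold change 2.67, SE 0.11, adjusted p = 6.4e-09).

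Resident Kupffer cell genes split. Of that list, 9 of the 24 genes measured rose and 4 fell (with TMM scaling, 2 and 6), and the 4 markers fixed for Kupffer cells did not move together. Clec4f, a lectin receptor of Kupffer cells alone, stood at 63.2, 58.6 and 57.8 CPM in Lcn2-/- CCl4 livers, against 85.2, 101 and 116 CPM in Lcn2-/- oil livers (log2 fold change -0.73, SE 0.12, adjusted p = 3.4e-04). Timd4, the phosphatidylserine receptor of long-lived Kupffer cells, stood at 7.65, 3.02 and 6.63 CPM in Lcn2-/- CCl4 livers, against 12.1, 13.1 and 16.0 CPM in Lcn2-/- oil livers (log2 fold change -1.19, SE 0.27, adjusted p = 0.0036). Cd5l, a secreted scavenger protein of macrophages, rose on the deposited CPM and did not pass with TMM scaling (0.32), at 272, 255 and 178 CPM in Lcn2-/- CCl4 livers, against 119, 126 and 173 CPM in Lcn2-/- oil livers (log2 fold change 0.75, SE 0.16, adjusted p = 0.0030). Vsig4, a complement receptor, stood at 73.7, 50.03 and 53.5 CPM in Lcn2-/- CCl4 livers, against 49.0, 42.8 and 59.3 CPM in Lcn2-/- oil livers and did not pass. Of these markers Clec4f and Timd4 fell on both scales. Marco, a scavenger receptor, stood at 131, 79.3 and 72.3 CPM in Lcn2-/- CCl4 livers, against 27.4, 15.4 and 31.6 CPM in Lcn2-/- oil livers (log2 fold change 1.89, SE 0.25, adjusted p = 8.1e-05). By contrast, Adgre1 and C1qa, which all macrophages share, rose on the deposited CPM (0.95 and 0.94) but did not pass with TMM scaling. Of the neutrophil list, 11 of the 18 genes measured rose and 0 fell (with TMM scaling, 6 and 1), whereas its summed level was lower with CCl4, at 1286, 1222 and 1239 CPM in Lcn2-/- CCl4 livers, against 1597, 1644 and 1792 CPM in Lcn2-/- oil livers. Most of that sum came from Wfdc21, a secreted protein of the list, which stood at 1116, 1063 and 1145 CPM in Lcn2-/- CCl4 livers, against 1559, 1583 and 1739 CPM in Lcn2-/- oil livers and lay just short of the fold threshold on the deposited CPM (log2 fold change -0.55) and fell with TMM scaling (-0.98). It also passed as lower without CCl4 library 3 (-0.58) or oil library 1 (-0.58) or 2 (-0.57). S100a9, which forms calprotectin together with S100a8, stood at 52.6, 54.2 and 29.5 CPM in Lcn2-/- CCl4 livers, against 10.7, 18.3 and 11.3 CPM in Lcn2-/- oil livers. S100a8 stood at 50.5, 38.4 and 22.5 CPM in Lcn2-/- CCl4 livers, against 10.4, 19.7 and 16.6 CPM in Lcn2-/- oil livers, and library 3 was the lowest of the CCl4 group for both. Mpo, a granule peroxidase of neutrophils and monocytes, stood at 1.45, 1.81 and 0.125 CPM in Lcn2-/- CCl4 livers, against 0, 0.359 and 0 CPM in Lcn2-/- oil livers. Mpo did not pass (adjusted p = 0.054), although it did without CCl4 library 3 (adjusted p = 0.0029). Of the T and NK cell list, 1 of the 29 genes measured rose and 0 fell (with TMM scaling, 1 and 1). Of the B and plasma cell list, 9 of the 27 genes measured rose and 0 fell (with TMM scaling, 5 and 0), and its share of higher genes (33.3%) was near the 29.6% of all genes. Ms4a1, which encodes CD20, stood at 2.24, 1.01 and 2.00 CPM in Lcn2-/- CCl4 livers, against 0.218, 0 and 0.496 CPM in Lcn2-/- oil livers (log2 fold change 1.14, SE 0.27, adjusted p = 0.0044).

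Soluble signals were mixed. Of the chemokines and their receptors, 19 of the 40 genes measured rose and 1 fell (with TMM scaling, 14 and 3). Cx3cr1, the fractalkine receptor, stood at 17.5, 20.5 and 7.0003 CPM in Lcn2-/- CCl4 livers, against 0.327, 1.004 and 0.868 CPM in Lcn2-/- oil livers (log2 fold change 3.11, SE 0.35, adjusted p = 2.4e-05). The annotated gene overlaps Gorasp1, Csrnp1 and Xirp1 on the same strand, none of which passed, and Wdr48 on the opposite strand, which rose. How far reads of these genes entered its value was not tested. Ccl2, the ligand of CCR2, stood at 25.8, 24.2 and 6.63 CPM in Lcn2-/- CCl4 livers, against 7.63, 3.80 and 6.69 CPM in Lcn2-/- oil livers (log2 fold change 1.34, SE 0.40, adjusted p = 0.018), where library 3 of the CCl4 group lay within the oil group. Ccl2 did not pass with TMM scaling or without library 1 or 2 of the CCl4 group or library 2 of the oil group. Cxcl13, which draws B cells, fell, at 0.527, 1.31 and 0 CPM in Lcn2-/- CCl4 livers, against 3.92, 5.596 and 7.31 CPM in Lcn2-/- oil livers (log2 fold change -2.09, SE 0.33, adjusted p = 3.0e-04). Of the interleukin and TNF list, 12 of the 37 genes measured rose and 1 fell (with TMM scaling, 4 and 5), and without library 1 of the CCl4 group or library 1 or 2 of the oil group 7 rose. Its share of higher genes (32.4%, and 10.8% with TMM scaling) was near that of all genes (29.6%, and 12.5% with TMM scaling). Tnfrsf12a, the receptor of TWEAK, stood at 22.3, 20.9 and 18.0 CPM in Lcn2-/- CCl4 livers, against 1.74, 1.29 and 1.86 CPM in Lcn2-/- oil livers (log2 fold change 3.03, SE 0.21, adjusted p = 3.5e-07). Il33, an alarm signal from dying cells, stood at 8.44, 7.85 and 8.50 CPM in Lcn2-/- CCl4 livers, against 1.74, 1.94 and 1.98 CPM in Lcn2-/- oil livers (log2 fold change 1.68, SE 0.22, adjusted p = 6.9e-05). Of the interferon-stimulated genes, 20 of the 46 genes measured rose and 1 fell (with TMM scaling, 5 and 4), and 10 rose without library 2 of the CCl4 group and 13 without library 2 of the oil group. On the deposited CPM 43.5% of this list rose, against 29.6% of all genes. With TMM scaling its shares (10.9% higher and 8.70% lower) were near those of all genes (12.5% and 10.7%). Rsad2, which encodes viperin, stood at 41.0, 53.9 and 32.4 CPM in Lcn2-/- CCl4 livers, against 6.98, 9.33 and 8.43 CPM in Lcn2-/- oil livers (log2 fold change 2.21, SE 0.19, adjusted p = 2.2e-06). Of the MHC class I list, 4 of the 20 genes measured rose and 0 fell (with TMM scaling, 0 and 3), and 2 rose without CCl4 library 2 or oil library 1. Of the MHC class II and dendritic cell list, 5 of the 23 genes measured rose and 1 fell (with TMM scaling, 2 and 1), with 1 to 6 rising when each library was left out in turn. The lowest count was that without CCl4 library 1. The share of higher genes was 20.0% in the MHC class I list and 21.7% in the class II list, below the 29.6% of all genes. With TMM scaling these shares were 0.0% and 8.70%, below the 12.5% of all genes.

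Hepatocyte genes of the zone around the central vein fell. Cyp2e1, the enzyme that activates CCl4, stood at 358, 248 and 196 CPM in Lcn2-/- CCl4 livers, against 4145, 3169 and 3325 CPM in Lcn2-/- oil livers (log2 fold change -3.76, SE 0.18, adjusted p = 1.5e-08). The mean of CCl4 livers was 0.0754 of the mean of oil livers. Of the pericentral list, 0 of the 25 genes measured rose and 17 fell (with TMM scaling, 0 and 21), and none rose on either scale. Glul, the glutamine synthetase of the innermost hepatocyte ring, stood at 53.8, 66.9 and 55.8 CPM in Lcn2-/- CCl4 livers, against 816, 736 and 824 CPM in Lcn2-/- oil livers (log2 fold change -3.73, SE 0.10, adjusted p = 3.8e-10). Oat, the ornithine aminotransferase of the same ring, stood at 148, 108 and 74.1 CPM in Lcn2-/- CCl4 livers, against 1206, 1173 and 927 CPM in Lcn2-/- oil livers (log2 fold change -3.36, SE 0.19, adjusted p = 7.2e-08). The oil libraries lay far above the CCl4 libraries for all 3 genes, with no overlap. Of the P450 enzymes of foreign compounds, 1 of the 33 genes measured rose and 22 fell (with TMM scaling, 0 and 25), and the median log2 fold change was -0.81 (-1.23 with TMM scaling). The 1 member that rose was Cyp2a4, which did not pass with TMM scaling and has near-identical copies. Nr1i3, the receptor CAR that induces many P450 genes, stood at 58.2, 55.5 and 42.9 CPM in Lcn2-/- CCl4 livers, against 139.5, 117 and 124 CPM in Lcn2-/- oil livers (log2 fold change -1.27, SE 0.12, adjusted p = 7.4e-06).

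Periportal genes moved in both directions. Of that list, 4 of the 24 genes measured rose and 8 fell (with TMM scaling, 3 and 13). Cdh1, the E-cadherin of periportal hepatocytes and bile ducts, stood at 75.2, 88.3 and 90.9 CPM in Lcn2-/- CCl4 livers, against 12.8, 16.9 and 17.0 CPM in Lcn2-/- oil livers (log2 fold change 2.38, SE 0.14, adjusted p = 7.4e-08). Pigr, the antibody transporter, stood at 356, 479 and 341 CPM in Lcn2-/- CCl4 livers, against 1001, 1079 and 997 CPM in Lcn2-/- oil livers (log2 fold change -1.401, SE 0.12, adjusted p = 2.4e-06). Pck1, the first enzyme of glucose synthesis, stood at 112, 227 and 202 CPM in Lcn2-/- CCl4 livers, against 719, 521 and 657 CPM in Lcn2-/- oil livers (log2 fold change -1.85, SE 0.21, adjusted p = 2.4e-05). Of the hepatocyte transcription factors, 3 of the 27 genes measured rose and 5 fell (with TMM scaling, 0 and 13). Cebpa, a factor of the mature hepatocyte, stood at 72.0, 71.0 and 69.6 CPM in Lcn2-/- CCl4 livers, against 130.3, 123 and 100.3 CPM in Lcn2-/- oil livers (log2 fold change -0.72, SE 0.11, adjusted p = 2.2e-04). Foxa3, Foxa1 and Onecut1 rose on the deposited CPM and did not pass with TMM scaling, and none of these calls held without every single library. The call of Foxa3 was lost without oil library 1, that of Foxa1 without CCl4 library 2 or oil library 2 or 3, and that of Onecut1 without CCl4 library 1 or 2 or oil library 3.

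Bile acid synthesis and nitrogen metabolism fell broadly. Of the bile acid list, 2 of the 28 genes measured rose and 15 fell (with TMM scaling, 0 and 21), and the median log2 fold change was -0.61 (-1.03 with TMM scaling). Cyp8b1, the 12-hydroxylase that sets the share of cholic acid, stood at 22.2, 23.4 and 15.001 CPM in Lcn2-/- CCl4 livers, against 350.4, 426 and 326 CPM in Lcn2-/- oil livers (log2 fold change -4.14, SE 0.15, adjusted p = 2.7e-09). Slc27a5, which joins bile acids to coenzyme A, averaged 301 ± 22.2 CPM in Lcn2-/- CCl4 livers and 856 ± 54.6 CPM in Lcn2-/- oil livers (SD, n = 3 each). Slc10a1, the uptake carrier NTCP, averaged 245 ± 8.95 CPM in Lcn2-/- CCl4 livers and 579 ± 68.3 CPM in Lcn2-/- oil livers (SD, n = 3 each). Of the urea cycle and amino acid list, 2 of the 45 genes measured rose and 15 fell (with TMM scaling, 1 and 32). Gnmt, which uses up methyl groups on glycine, stood at 752, 777 and 631 CPM in Lcn2-/- CCl4 livers, against 2005, 2378 and 1908 CPM in Lcn2-/- oil livers (log2 fold change -1.54, SE 0.11, adjusted p = 6.4e-07). Cth, which makes cysteine, stood at 201, 203 and 191 CPM in Lcn2-/- CCl4 livers, against 695, 529 and 519.6 CPM in Lcn2-/- oil livers (log2 fold change -1.53, SE 0.11, adjusted p = 5.7e-07). Of the major urinary proteins and the growth hormone axis, 0 of the 22 genes measured rose and 11 fell (with TMM scaling, 0 and 17), among them Mup14, with the limit on near-identical copies given above.

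Lists of fuel metabolism differed in the direction of their calls. Of the fatty acid oxidation and PPAR alpha list, 1 of the 36 genes measured rose and 11 fell (with TMM scaling, 1 and 20). Acsl1, which activates fatty acids, stood at 193, 224 and 239 CPM in Lcn2-/- CCl4 livers, against 490.3, 437 and 479 CPM in Lcn2-/- oil livers (log2 fold change -1.10, SE 0.10, adjusted p = 3.2e-06). Cyp4a31 was the 1 member that rose, at 16.1, 33.3 and 27.9 CPM in Lcn2-/- CCl4 livers, against 4.14, 5.17 and 2.98 CPM in Lcn2-/- oil livers. It has near-identical copies, of which Cyp4a10 fell, at 101, 217 and 119.6 CPM in Lcn2-/- CCl4 livers, against 669, 499.7 and 471 CPM in Lcn2-/- oil livers. Of the fatty acid and triglyceride synthesis list, 9 of the 24 genes measured rose and 2 fell (with TMM scaling, 5 and 6). Scd2, a stearoyl-CoA desaturase, stood at 113, 122 and 177 CPM in Lcn2-/- CCl4 livers, against 5.89, 5.74 and 5.33 CPM in Lcn2-/- oil livers (log2 fold change 4.35, SE 0.16, adjusted p = 2.7e-09). Pnpla3, a lipid droplet protein, stood at 28.4, 29.1 and 43.1 CPM in Lcn2-/- CCl4 livers, against 1.53, 1.94 and 5.45 CPM in Lcn2-/- oil livers (log2 fold change 3.22, SE 0.31, adjusted p = 6.6e-06). Srebf1, whose product is known to induce genes of lipid synthesis, stood at 193, 191 and 199 CPM in Lcn2-/- CCl4 livers, against 72.2, 84.5 and 103 CPM in Lcn2-/- oil livers (log2 fold change 1.17, SE 0.12, adjusted p = 9.5e-06). Of the cholesterol synthesis list, 6 of the 25 genes measured rose and 2 fell (with TMM scaling, 1 and 3). Of the glucose and glycogen list, 12 of the 35 genes measured rose and 3 fell (with TMM scaling, 7 and 11), and 5 fell without CCl4 library 3. Its share of higher genes (34.3%) was near the 29.6% of all genes. Pkm, the pyruvate kinase of most tissues outside the hepatocyte, stood at 48.8, 59.0 and 32.5 CPM in Lcn2-/- CCl4 livers, against 8.28, 11.1 and 11.03 CPM in Lcn2-/- oil livers (log2 fold change 2.07, SE 0.20, adjusted p = 7.3e-06). Ldha, a lactate dehydrogenase, rose on the deposited CPM (0.97) but lay just under the fold threshold with TMM scaling (0.55). Of the apolipoproteins, 4 of the 20 genes measured rose and 8 fell (with TMM scaling, 3 and 10). Apoa4, of intestinal and hepatic lipoproteins, stood at 500.3, 597 and 329.6 CPM in Lcn2-/- CCl4 livers, against 54.2, 45.8 and 38.3 CPM in Lcn2-/- oil livers (log2 fold change 3.31, SE 0.18, adjusted p = 5.9e-08) and shares 839 bases with the antisense gene Gm10680, which also rose. Lpl, the lipase that releases fatty acids from lipoproteins, averaged 322 ± 80.1 CPM in Lcn2-/- CCl4 livers and 55.1 ± 26.4 CPM in Lcn2-/- oil livers (SD, n = 3 each). Apoa2 of high-density lipoprotein averaged 5742 ± 221 CPM in Lcn2-/- CCl4 livers and 13571 ± 178 CPM in Lcn2-/- oil livers (SD, n = 3 each). Of the retinoid list, 4 of the 18 genes measured rose and 4 fell (with TMM scaling, 3 and 7). That is 22.2% higher and 22.2% lower, against 29.6% and 4.51% of all genes. With TMM scaling it was 16.7% and 38.9%, against 12.5% and 10.7%.

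Defense against oxidants rose in some arms and fell in others. Of the antioxidant, NRF2 target and metallothionein list, 15 of the 35 genes measured rose and 4 fell (with TMM scaling, 8 and 11). Nfe2l2, which encodes NRF2, stood at 121, 111 and 112 CPM in Lcn2-/- CCl4 livers, against 43.4, 43.8 and 48.3 CPM in Lcn2-/- oil livers (log2 fold change 1.32, SE 0.10, adjusted p = 6.7e-07). Its target Srxn1, sulfiredoxin, stood at 90.1, 99.1 and 78.8 CPM in Lcn2-/- CCl4 livers, against 26.5, 28.2 and 28.6 CPM in Lcn2-/- oil livers (log2 fold change 1.64, SE 0.11, adjusted p = 3.6e-07). Among the 4 members that fell on the deposited CPM were Gpx1 and Cat, which remove peroxides. Gpx1, glutathione peroxidase, averaged 1359.5 ± 139 CPM in Lcn2-/- CCl4 livers and 2927 ± 376 CPM in Lcn2-/- oil livers, and Cat, catalase, averaged 1034 ± 122 CPM in Lcn2-/- CCl4 livers and 2039 ± 97.0 CPM in Lcn2-/- oil livers (SD, n = 3 each). The antioxidant response element (TGACNNNGC, either strand) occurred in 29.3% of the 41 promoters of 30 of these 35 genes and in 12.4% of all promoters. Of the conjugating enzymes, 5 of the 42 genes measured rose and 9 fell (with TMM scaling, 3 and 23). Gsta1, a glutathione transferase, stood at 95.5, 76.2 and 109 CPM in Lcn2-/- CCl4 livers, against 12.5, 15.7 and 8.06 CPM in Lcn2-/- oil livers (log2 fold change 2.88, SE 0.20, adjusted p = 4.3e-07). Its relatives Gstm3 and Gstp1 rose by 1.86 and 1.63 on the log2 scale. The sulfotransferase Sult2a8 fell by 2.79 on the log2 scale. Of the endoplasmic reticulum stress list, 12 of the 26 genes measured rose and 3 fell (with TMM scaling, 4 and 3), with Atf3 (3.003) rising and Herpud1 (-1.06) falling.

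Several remaining lists depended on the scale. Of the cytosolic ribosomal proteins, 49 of the 75 genes measured rose and 0 fell (with TMM scaling, 0 and 0), and the median log2 fold change was 0.63 on the deposited CPM and 0.20 with TMM scaling. On that scale limma gave 37 an unadjusted p under 0.05 and edgeR and DESeq2 called 1 each. Of the nuclear genes of oxidative phosphorylation, 1 of the 46 genes measured rose and 0 fell (with TMM scaling, 0 and 13), and of the mitochondrial transcripts, 0 of the 15 genes measured rose and 0 fell (with TMM scaling, 0 and 8). Of these transcripts, 3 had an unadjusted p under 0.05 on the deposited CPM, and edgeR and DESeq2 called 8 lower each. Of the complement and coagulation list, 2 of the 42 genes measured rose and 4 fell (with TMM scaling, 0 and 25). For these 4 lists the number of genes that passed changed with the scale, and no gene was called in opposite directions. Of the clock genes, 5 of the 19 genes measured rose and 5 fell (with TMM scaling, 1 and 8), and 3 rose without oil library 2. Nr1d1, which encodes the repressor REV-ERB alpha, stood at 3.56, 1.21 and 16.1 CPM in Lcn2-/- CCl4 livers, against 55.3, 54.1 and 48.1 CPM in Lcn2-/- oil livers (log2 fold change -3.26, SE 0.51, adjusted p = 3.1e-04). Npas2, which it represses, stood at 10.4, 11.7 and 11.5 CPM in Lcn2-/- CCl4 livers, against 1.96, 3.80 and 4.83 CPM in Lcn2-/- oil livers (log2 fold change 1.48, SE 0.26, adjusted p = 6.0e-04), with the hour of tissue collection not given in the sources used here. Of the immediate early factors, 12 of the 24 genes measured rose and 0 fell (with TMM scaling, 10 and 3). Jun, a subunit of AP-1, stood at 28.5, 35.8 and 29.6 CPM in Lcn2-/- CCl4 livers, against 3.27, 2.51 and 3.10 CPM in Lcn2-/- oil livers (log2 fold change 3.03, SE 0.18, adjusted p = 1.1e-07). Of the imprinted and oncofetal list, 13 of the 23 genes measured rose and 0 fell (with TMM scaling, 8 and 0), and 8 rose without oil library 2. Afp, the alpha-fetoprotein of fetal and regenerating liver, stood at 17.5, 13.4 and 18.8 CPM in Lcn2-/- CCl4 livers, against 0.763, 0.430 and 1.61 CPM in Lcn2-/- oil livers (log2 fold change 3.21, SE 0.27, adjusted p = 1.9e-06). The imprinted growth factor Igf2 stood at 0.132, 0.201 and 1.13 CPM in Lcn2-/- CCl4 livers, against 0.218, 0.215 and 0 CPM in Lcn2-/- oil livers and did not pass, with every library but CCl4 library 3 at or below the level of 3 reads. Of the iron list, 6 of the 25 genes measured rose and 2 fell (with TMM scaling, 4 and 3), and the hepcidin genes differed. Hamp stood at 1879.9, 2037 and 1100.3 CPM in Lcn2-/- CCl4 livers, against 1068, 1776 and 873 CPM in Lcn2-/- oil livers and did not pass, although it did without CCl4 library 3 (log2 fold change 0.73) or oil library 2 (0.74). Hamp2 fell and stood at 188, 96.5 and 145 CPM in Lcn2-/- CCl4 livers, against 479, 459 and 565 CPM in Lcn2-/- oil livers (log2 fold change -1.85, SE 0.18, adjusted p = 8.7e-06).

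Acute-phase genes changed little as a group in Lcn2-/- livers. Of that list, 10 of the 32 genes measured rose and 4 fell (with TMM scaling, 5 and 6), with a median log2 fold change of 0.41 (-0.01 with TMM scaling). That median is close to that of all genes on either scale, and 2 fell without CCl4 library 1 or oil library 1. Saa3, the serum amyloid A of macrophages and fat, stood at 196, 86.0 and 138 CPM in Lcn2-/- CCl4 livers, against 11.01, 9.83 and 11.2 CPM in Lcn2-/- oil livers (log2 fold change 3.52, SE 0.22, adjusted p = 1.9e-07). Saa1, the main hepatocyte serum amyloid A, stood at 318, 499.5 and 3607 CPM in Lcn2-/- CCl4 livers, against 152, 150.3 and 121 CPM in Lcn2-/- oil livers (log2 fold change 2.56, SE 0.62, adjusted p = 0.0054), and library 3 was far above the other CCl4 libraries. Saa1 has a near-identical copy, Saa2, to which reads could have been assigned. Lrg1, a secreted plasma protein, averaged 608 ± 87.6 CPM in Lcn2-/- CCl4 livers and 309 ± 69.1 CPM in Lcn2-/- oil livers (SD, n = 3 each). Cp, the copper carrier ceruloplasmin, averaged 1402 ± 238 CPM in Lcn2-/- CCl4 livers and 699 ± 54.4 CPM in Lcn2-/- oil livers (SD, n = 3 each). Both passed on the deposited CPM and, just beyond the fold threshold, with TMM scaling (log2 fold change 0.56 for Lrg1 and 0.56 for Cp). Hpx, the heme carrier, rose on the deposited CPM (0.77) but not with TMM scaling. Saa4 and Orm3 fell by 1.09 and 1.38 on the log2 scale. Stat3, a transcription factor that induces acute-phase genes, stood at 74.9, 91.0 and 82.5 CPM in Lcn2-/- CCl4 livers, against 69.3, 95.3 and 79.7 CPM in Lcn2-/- oil livers.

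The genes that the study measured by RT-qPCR give a short view of the same livers. Of 32 such genes 27 were in the table, and 15 of these rose on the deposited CPM and 7 with TMM scaling, none falling on either. The study chose these genes for the same livers, so their direction is no independent evidence. The 7 that rose on both scales were the matrix genes Col1a1, Col1a2, Acta2, Mmp2 and Timp1 and the myeloid genes Itgam and Ccr2. Tgfb1, Tgfbr1, Tgfbr2, Ptprc, Adgre1, Ccl2 and Il1a rose only on the deposited CPM, and for Il1a the call was lost without library 1 or 2 of either group. Gapdh, often used as the reference of RT-qPCR, also rose on the deposited CPM, at 433, 448 and 532 CPM in Lcn2-/- CCl4 livers, against 289, 285 and 311 CPM in Lcn2-/- oil livers (log2 fold change 0.67, SE 0.10, adjusted p = 1.6e-04), and not with TMM scaling (0.24). The cytokine Il1b stood at 4.48, 3.52 and 1.5001 CPM in Lcn2-/- CCl4 livers, against 2.51, 3.87 and 6.07 CPM in Lcn2-/- oil livers. The chemokine Cxcl1 stood at 20.7, 25.9 and 11.9 CPM in Lcn2-/- CCl4 livers, against 10.7, 26.7 and 18.2 CPM in Lcn2-/- oil livers. The gelatinase Mmp9 stood at 2.77, 2.42 and 2.13 CPM in Lcn2-/- CCl4 livers, against 0.436, 3.80 and 2.98 CPM in Lcn2-/- oil livers. None of these passed, and the groups overlapped in each.

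Whether the response differed from that of wild type livers was tested as the difference of the CCl4 responses over 15194 genes held by both tables, which share no library. The response was more positive in Lcn2-/- livers for 165 genes (1.09%) and more negative for 124 (0.816%), or 1.90% in either direction. With TMM scaling these were 137 (0.902%) and 193 (1.27%), or 2.17% in either direction. Of these genes 4615 rose in Lcn2-/- livers and 2914 in wild type livers (19.2%), and 699 fell in Lcn2-/- livers and 499 in wild type livers (3.28%). The 2251 that rose in both were 48.8% of those that rose in Lcn2-/- and 77.2% of those that rose in wild type livers. The 274 that fell in both were 39.2% of those that fell in Lcn2-/- and 54.9% of those that fell in wild type livers. Another 22 rose in Lcn2-/- and fell in wild type livers, and 8 did the opposite. These counts of calls do not by themselves show a difference. The number of differing genes depended on single libraries. It was 295 and 152 without Lcn2-/- CCl4 library 3. It was 95 and 78 without Lcn2-/- CCl4 library 1, 80 and 75 without library 2, 97 and 71 without Lcn2-/- oil library 1 and 86 and 69 without oil library 2. It was 69 and 67 without wild type CCl4 library 2, 107 and 86 without wild type CCl4 library 3 and 84 and 73 without wild type oil library 2.

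**Figure D4:**
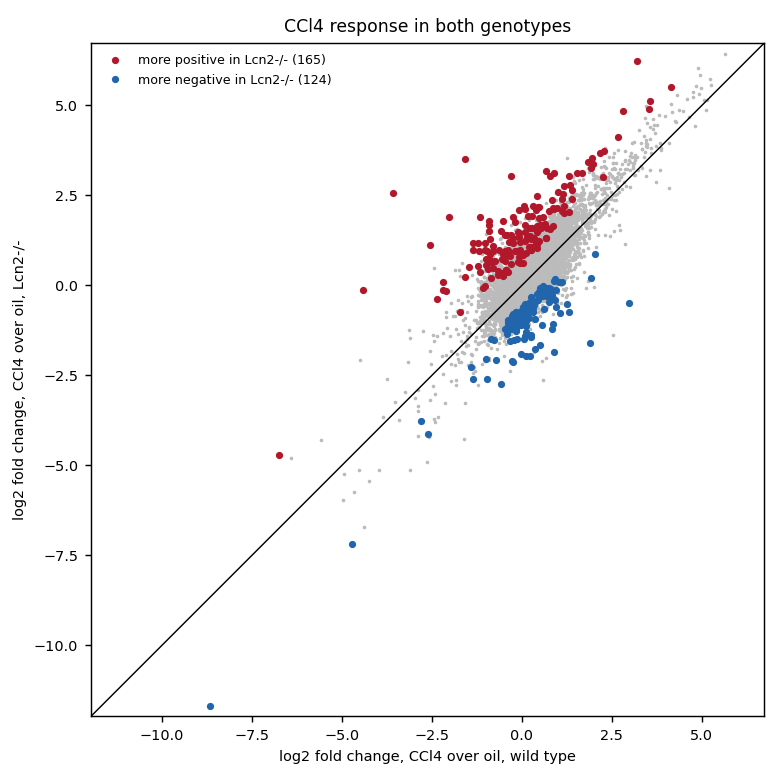
Log2 fold change of CCl4 over oil livers in Lcn2-/- mice (y axis) against that in wild type mice (x axis) for 15194 genes on the deposited CPM. Filled colored points mark the 165 genes with a more positive and the 124 with a more negative response in Lcn2-/- livers, grey points the rest, and the line marks equal responses.

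Acute-phase and neutrophil genes were among those with a more positive response in Lcn2-/- livers. Such genes were 1.09% of all genes tested (0.902% with TMM scaling), and the counts of lists below stand beside that share. Of the 32 acute-phase genes, 10 had a more positive response in Lcn2-/- livers (7 with TMM scaling) and none a more negative one, and the median log2 fold change was 0.41 in Lcn2-/- and -0.73 in wild type livers. For Saa3 the wild type libraries held 52.1, 141 and 96.7 CPM in wild type CCl4 livers, against 247, 334 and 235 CPM in wild type oil livers, so the gene rose in Lcn2-/- livers and fell in wild type livers (difference 5.09, SE 0.40, adjusted p = 3.1e-06). For Saa1 they held 561, 728 and 224 CPM in wild type CCl4 livers, against 1049.9, 8462 and 18135 CPM in wild type oil livers (difference 6.15, SE 1.18, adjusted p = 0.010). For Orm2, an acid glycoprotein, the Lcn2-/- libraries held 252, 282 and 648 CPM in Lcn2-/- CCl4 livers, against 127, 173 and 206 CPM in Lcn2-/- oil livers, whereas wild type libraries had 331, 430.3 and 349 CPM in wild type CCl4 livers, against 1002, 2657 and 3821 CPM in wild type oil livers (difference 3.67, SE 0.53, adjusted p = 0.0015). In Lcn2-/- livers Orm2 rose on the deposited CPM and did not pass with TMM scaling (log2 fold change 0.69). The oil groups were far apart for Saa3, Saa1 and Orm2, with every wild type oil library above every Lcn2-/- oil library, while the CCl4 groups overlapped. Haptoglobin, Hp, did not pass in Lcn2-/- livers, at 3651, 3783 and 3230.4 CPM in Lcn2-/- CCl4 livers, against 2282, 2523 and 2978 CPM in Lcn2-/- oil livers. It fell in wild type livers, at 3802, 3124 and 2845 CPM in wild type CCl4 livers, against 4708, 6262 and 8182 CPM in wild type oil livers (difference 1.405, SE 0.25, adjusted p = 0.0072). Without Lcn2-/- oil library 3, Hp passed in Lcn2-/- livers too, at the fold threshold (log2 fold change 0.56). Among neutrophil genes 4 of 18 had a more positive response and none a more negative one. S100a9 stood at 56.9, 36.7 and 35.2 CPM in wild type CCl4 livers, against 74.7, 92.5 and 74.8 CPM in wild type oil livers (difference 2.597, SE 0.33, adjusted p = 6.3e-04). Prtn3, a granule protease, stood at 8.97, 13.6 and 13.8 CPM in Lcn2-/- CCl4 livers, against 0.872, 2.22 and 5.83 CPM in Lcn2-/- oil livers. It stood at 18.99, 13.6 and 7.72 CPM in wild type CCl4 livers, against 25.7, 70.7 and 90.4 CPM in wild type oil livers (difference 3.94, SE 0.62, adjusted p = 0.0029). Marco stood at 62.6, 82.7 and 185 CPM in wild type CCl4 livers, against 376, 227 and 129 CPM in wild type oil livers (difference 3.06, SE 0.53, adjusted p = 0.0058). Mesothelial genes had 5 of 15 members with a more positive response. Among them was the keratin Krt19, which is also a marker fixed for bile duct cells. Krt19 stood at 6.59, 4.53 and 3.0001 CPM in Lcn2-/- CCl4 livers, against 1.20, 1.08 and 1.49 CPM in Lcn2-/- oil livers. It stood at 4.64, 6.58 and 4.54 CPM in wild type CCl4 livers, against 13.01, 10.6 and 8.41 CPM in wild type oil livers (difference 2.19, SE 0.36, adjusted p = 0.0042).

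**Figure D5:**
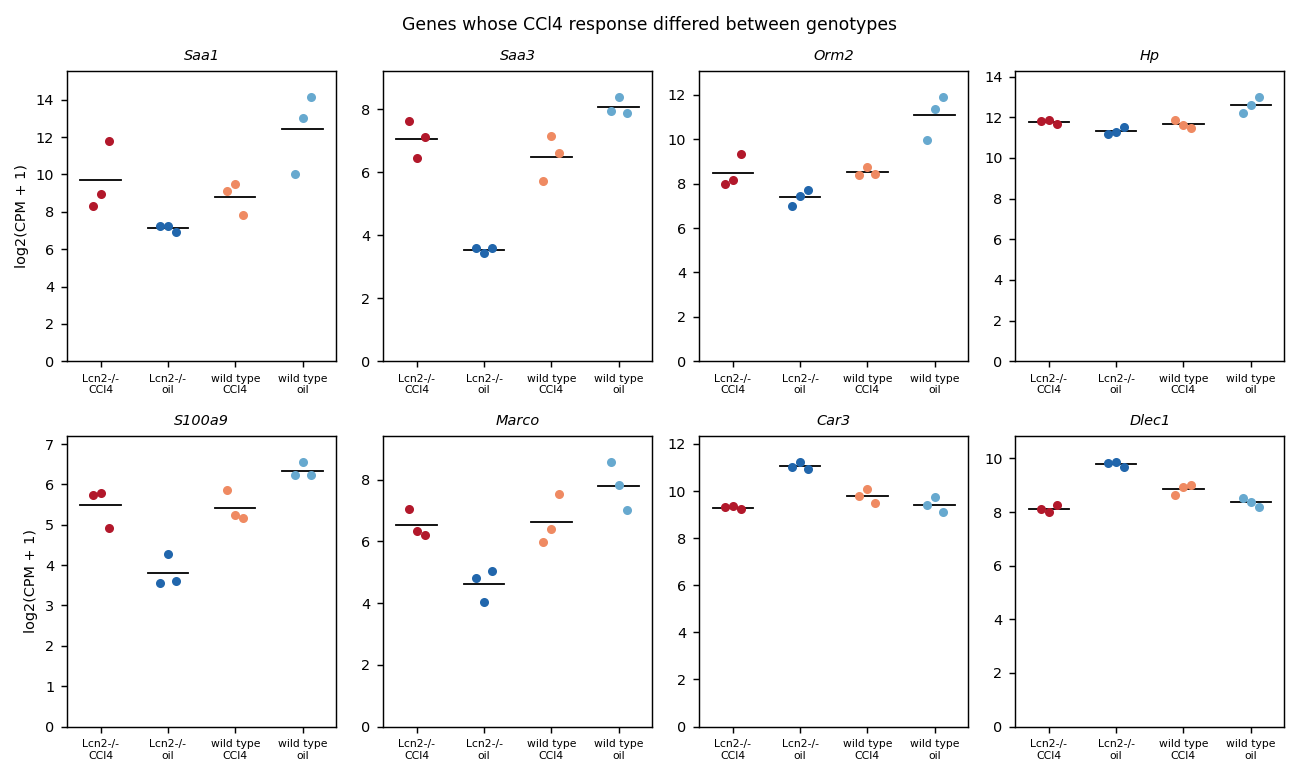
Expression of 8 genes as log2(CPM + 1) (y axis) in each library of the 4 groups, in the order Lcn2-/- CCl4, Lcn2-/- oil, wild type CCl4 and wild type oil. Each point is a library and each horizontal line a group mean, n = 3 per group. For Saa1, Saa3, Orm2, Hp, S100a9 and Marco the wild type oil libraries lie above the Lcn2-/- oil libraries, and for Car3 and Dlec1 the Lcn2-/- oil libraries lie above all others.

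Part of the proliferative and cytoskeletal response was also larger in Lcn2-/- livers. Of the cytoskeleton list, 14 of 34 genes had a more positive response (12 with TMM scaling) and none a more negative one, the median log2 fold change being 1.85 in Lcn2-/- and 0.83 in wild type livers. Of the replication list 6 of 50 had a more positive response (5 with TMM scaling), and of the mitosis list only 3 of 74 (2 with TMM scaling). These counts are to be read against the 1.09% of all genes with a more positive response (0.902% with TMM scaling). Rrm2 stood at 95.8, 61.5 and 49.5 CPM in wild type CCl4 livers, against 5.28, 3.96 and 5.17 CPM in wild type oil livers (difference 1.58, SE 0.28, adjusted p = 0.0072). Ccne1 stood at 7.84, 4.52 and 4.99 CPM in wild type CCl4 livers, against 0.637, 0.360 and 1.32 CPM in wild type oil livers (difference 1.58, SE 0.37, adjusted p = 0.034). That call was lost without Lcn2-/- CCl4 library 2, any Lcn2-/- oil library, wild type CCl4 library 2 or 3 or wild type oil library 3 (adjusted p 0.051 to 0.10). Cdkn1a stood at 37.7, 29.3 and 32.0 CPM in wild type CCl4 livers, against 8.19, 24.5 and 39.1 CPM in wild type oil livers (difference 2.49, SE 0.48, adjusted p = 0.010). For Cdkn1a and Ccne1 the CCl4 livers of Lcn2-/- mice were above those of wild type mice, and their oil livers were below. Ly6d, the gene with the second largest increase, stood at 166, 145 and 169 CPM in wild type CCl4 livers, against 17.1, 7.68 and 32.8 CPM in wild type oil livers (difference 3.02, SE 0.44, adjusted p = 0.0016). Cdc20 did not differ between genotypes at the threshold (difference 0.79, adjusted p = 0.26). Neither did Col1a1 (difference 0.89, adjusted p = 0.32), although it passed without Lcn2-/- CCl4 library 3 (difference 1.28, adjusted p = 0.048). Col1a1 stood at 668, 345 and 328 CPM in wild type CCl4 livers, against 12.5, 15.1 and 10.8 CPM in wild type oil livers. For this gene the CCl4 groups of the genotypes overlapped, and every wild type oil library was above every Lcn2-/- oil library. Of the stellate cell and myofibroblast list 4 of 34 genes had a more positive response (3 with TMM scaling), of the processing enzymes and lysyl oxidases 1 of 20 (1 with TMM scaling), and none of either list a more negative one. Of the 108 genes in the collagen, laminin, glycoprotein and TGF beta lists, none passed the test of the difference with limma, although 25 had an unadjusted p under 0.05, none passed with edgeR, and DESeq2 called 9 more positive and 1 more negative. Timp1, of the protease list, did not pass on the deposited CPM and passed with TMM scaling (difference 2.32). It stood at 29.7, 11.1 and 9.19 CPM in wild type CCl4 livers, against 3.82, 6.84 and 6.37 CPM in wild type oil livers. Its CCl4 groups overlapped between genotypes, its oil groups did not, and its Lcn2-/- oil values rest on few reads.

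Several lists of hepatocyte metabolism, though not all, held genes with a more negative response. Over all genes tested, 0.816% had a more negative response (1.27% with TMM scaling). Of the urea cycle and amino acid list, 16 of 45 genes had a more negative response (19 with TMM scaling) and none a more positive one, the median log2 fold change being -0.43 in Lcn2-/- and 0.03 in wild type livers. Gnmt stood at 942, 1302 and 1342 CPM in wild type CCl4 livers, against 1523, 1555 and 1409.6 CPM in wild type oil livers (difference -1.20, SE 0.19, adjusted p = 0.0032). The periportal lyase Etnppl, which cleaves phosphoethanolamine, stood at 36.5, 32.4 and 34.8 CPM in Lcn2-/- CCl4 livers, against 76.8, 92.1 and 78.5 CPM in Lcn2-/- oil livers. It stood at 44.8, 79.2 and 89.2 CPM in wild type CCl4 livers, against 44.3, 39.8 and 30.7 CPM in wild type oil livers (difference -2.06, SE 0.27, adjusted p = 8.0e-04). Of the P450 list 9 of 32 genes had a more negative response and 1 a more positive one, of the periportal list 8 of 24 and of the bile acid list 6 of 28 a more negative one. The cholesterol synthesis list went the other way on the deposited CPM, with 4 of 25 genes more positive and none more negative, and with TMM scaling 1 was more positive and 1 more negative. Of 58 genes in the lists of fatty acid synthesis and glucose metabolism, none passed with limma, although 13 had an unadjusted p under 0.05, while edgeR called 1 more positive and 1 more negative, and DESeq2 called 1 more positive and 4 more negative. Car3, a carbonic anhydrase of the hepatocyte cytosol, stood at 630.4, 649 and 604 CPM in Lcn2-/- CCl4 livers, against 2091, 2378 and 1969.7 CPM in Lcn2-/- oil livers. It stood at 879, 1086 and 719 CPM in wild type CCl4 livers, against 683, 867 and 548 CPM in wild type oil livers (difference -2.13, SE 0.22, adjusted p = 8.9e-05). Dlec1 stood at 275, 255 and 303 CPM in Lcn2-/- CCl4 livers, against 904, 926 and 821 CPM in Lcn2-/- oil livers. It stood at 401, 492 and 512 CPM in wild type CCl4 livers, against 372, 329 and 289.9 CPM in wild type oil livers (difference -2.17, SE 0.16, adjusted p = 2.6e-06). Its annotated 3′ end overlaps that of the peroxisomal thiolase Acaa1b on the opposite strand by 224 bases, and Acaa1b moved in the same way (difference -1.55, SE 0.29, adjusted p = 0.0089), so the reads of the pair cannot be told apart without strand. Hamp2 fell in Lcn2-/- livers and stood at 202, 460.4 and 441 CPM in wild type CCl4 livers, against 219, 235 and 127 CPM in wild type oil livers (difference -2.72, SE 0.40, adjusted p = 0.0016). Meg3, an imprinted noncoding RNA, did not pass in Lcn2-/- livers, at 5.27, 9.26 and 6.00 CPM in Lcn2-/- CCl4 livers, against 5.99, 19.4 and 7.56 CPM in Lcn2-/- oil livers. It rose in wild type livers, at 9.61, 15.8 and 11.5 CPM in wild type CCl4 livers, against 0.910, 0.5998 and 0.481 CPM in wild type oil livers (difference -3.46, SE 0.47, adjusted p = 9.1e-04). For Cyp2e1 the fall was also larger in Lcn2-/- livers, with 367, 325 and 378 CPM in wild type CCl4 livers, against 2713, 2621 and 2125 CPM in wild type oil livers (difference -0.97, SE 0.24, adjusted p = 0.047). The call was lost without any single library (adjusted p 0.061 to 0.13) except Lcn2-/- CCl4 library 1 and wild type oil library 1.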

How the data were processed

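Liver RNA of female mice was read as 3′ tags in 12 libraries. Per the labels and the study's methods, the authors trimmed the reads with TrimGalore, aligned them to mm10 with STAR and counted them per gene, the counter being given as Salmon in the methods and as featureCounts in the submitters' processing notes, and tested them with DESeq2 1.30.0. The deposited values are CPM, whole reads scaled by the authors to all reads in genes of a library, and a deposited table lists the genes of 1 comparison. Both tables of CCl4 against oil were used, with 15645 genes for Lcn2-/- and 15841 for wild type livers. They also hold the authors' fold changes and p-values, which were not used, and 2 further tables that compare the genotypes directly and the ontology tables were not used here. All value columns were mapped to samples (0 were left out).

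The main test was limma 3.58.1 with a variance trend on log2(CPM + 1) in R 4.3.3, with no filter on low values, separately for each table, and the difference of the responses was tested in 1 model over all 12 libraries. Dividing by the step of each library gave whole reads for 100% of values (within 0.001 of a whole number), and edgeR 4.0.16 and DESeq2 1.42.0 were run on these reads. The DESeq2 fit used the local dispersion trend. The other alternatives were TMM factors, DESeq2 size factors, no variance trend, pseudocounts of 0.5 and 5, a mean of at least 1 CPM, a replicate block, each library left out in turn, a log2 threshold of 1 and 1 fit of all libraries. The scripts were tested on simulated data with 200 changed genes. Intervals and the 3-read level cover counting error only.

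Gene symbols and coordinates came from GENCODE M21 (GRCm38), matched by Ensembl ID. The genes, lists and motifs were chosen with earlier results of these data known. Named genes are the 10 largest changes in each direction at a mean of at least 5 CPM, up to 4 called members per direction of each list by the size of the test statistic, the genes of the RT-qPCR panels, the 10 largest differences in each direction, Lcn2 and Cyp2e1. Markers of cell types were fixed separately. A gene that this rule names is not reported here. Csrnp1, Elovl1, Gm10680, Gorasp1, Hamp, Hp, Igf2, LTO1, Mcm6, Pttg1, Stat3, Wdr48, Wfdc21 and Xirp1 were chosen after their values were seen.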

Additional observations from a re-analysis of the deposited data

Results flagged for a closer look

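For 20 genes named above the CCl4 response differed between Lcn2-/- and wild type livers in the test of the difference itself (limma, adjusted p at most 0.05), and this test is what brings them here. No group had enough libraries for a check of single outlying values. Differences are those of the log2 fold changes, Lcn2-/- minus wild type, on the deposited CPM. They were 6.15 for Saa1, 5.09 for Saa3, 3.94 for Prtn3, 3.67 for Orm2, 3.06 for Marco, 3.02 for Ly6d, 2.597 for S100a9, 2.49 for Cdkn1a, 2.19 for Krt19, 1.58 for Ccne1, 1.58 for Rrm2 and 1.40 for Hp. On the more negative side they were -0.97 for Cyp2e1, -1.20 for Gnmt, -1.55 for Acaa1b, -2.06 for Etnppl, -2.13 for Car3, -2.17 for Dlec1, -2.72 for Hamp2 and -3.46 for Meg3. The values of both oil groups stand beside those of the CCl4 groups above, and what set the oil groups apart was not tested.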

How the results depend on the processing

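Counts of genes higher and lower with CCl4 in Lcn2-/- livers moved by over 1.5 times with the scale, from 4631 and 705 on the deposited CPM, 86.8% of the calls being higher, to 1962 and 1672 with TMM factors (54.0%), 1951 and 1693 with DESeq2 size factors (53.5%), 1981 and 1707 with edgeR (53.7%) and 2075 and 1774 with DESeq2 (53.9%) on the recovered reads. With a pseudocount of 5, 2889 were higher, and with a threshold of 1 on the log2 scale 1968 were higher and 275 lower. Leaving out each library in turn gave 3968 to 4584 higher and 605 to 700 lower genes. The counts of genes with a more positive and a more negative response than in wild type livers, 165 and 124, were 193 more negative with TMM factors and 200 with size factors, 362 and 347 with DESeq2 and 45 and 25 without the variance trend, and ranged over 69 to 295 and 67 to 152 when each library was left out. The cause of these shifts was not tested.

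The labels number the libraries 1 to 3 in each group. Same-numbered Lcn2-/- libraries had correlations of their deviations from the group means of 0.035, -0.039 and -0.015, and only CCl4 library 1 correlated best with the oil library of its own number, so the numbers were not taken as pairs. With the replicate block 4549 genes were higher and 698 lower, and 144 and 112 differed from wild type livers. The block changed the call of Krt7, Lcn2 and Mpo, which then passed, and that of the difference of Ccne1, which then did not.

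Among named genes the sign changed only for some that passed in no setting. With TMM factors, size factors, edgeR and DESeq2 in that order, the log2 fold change was -0.070, -0.075, -0.086 and -0.090 for Apoa1, -0.31, -0.32, -0.37 and -0.37 for Cxcl1, -0.42, -0.43, -0.42 and -0.43 for Hnf4a, -0.10, -0.10, -0.44 and -0.44 for Mmp9, -0.18, -0.18, -0.19 and -0.19 for Pttg1, -0.15, -0.15, -0.17 and -0.18 for Reln, -0.13, -0.13, -0.12 and -0.13 for Stab2, -0.39, -0.40, -0.41 and -0.41 for Stat3, -0.30, -0.30, -0.30 and -0.31 for Ttr and -0.20, -0.21, -0.20 and -0.20 for Vsig4. For Hamp, which passed without some single libraries, it was -0.00016 with edgeR and -0.0072 with DESeq2. When each library was left out in turn it ranged over -0.24 to 0.39 for Cxcl1, -0.059 to 0.035 for Hnf4a, -0.57 to 0.010 for Il1b, -0.35 to 0.52 for Mmp9, -0.058 to 0.042 for Serpina1a and -0.078 to 0.15 for Stat3. Of 172 named genes, 154 kept their call and sign without each library in turn, and 131 kept them under every other setting that could be run. Of 108 counts of list members called higher or lower, 81 stayed within 1.5 times without each library in turn, those not given above being counts of at most 4 genes. Without the variance trend 8 of the 20 differences lost their call (Acaa1b, Ccne1, Cdkn1a, Cyp2e1, Hp, Marco, Rrm2 and Saa1). Values near 3 reads, as in many Lcn2-/- oil libraries, limit the fold changes of genes that were almost silent there.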
